A study of Mus musculus with 8 samples.

Results

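The 5 genes described here encode receptors through which cells sense complement cleavage products, in macrophages sorted from mouse melanomas. They are C3ar1, C5ar1, C5ar2, Vsig4 and Cr1l, found by symbol in the sample tables, where 16786 genes in all had values. The genes were chosen by their values in the same comparison of genotypes that is given below, so the differences between genotypes are a description and carry no test for these genes. The order of their levels was not itself used in the choice. Neighbours in that order were tested, although the order was read from the same values, which also entered the choice.

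Complement activation splits C3 and C5. The small fragments C3a and C5a, called anaphylatoxins, diffuse away and act on cells through 7-pass membrane receptors, whereas the large fragment C3b stays on surfaces and is bound there by receptors of another kind. C3ar1 is the receptor for C3a and C5ar1 the main receptor for C5a, and both couple to inhibitory G proteins and draw myeloid cells to sites of activation. C5ar2, the second C5a receptor, does not couple to G proteins and recruits beta-arrestins. Vsig4, also named CRIg, is an immunoglobulin-type receptor of tissue macrophages that binds C3b and its product iC3b. Cr1l, also named Crry, is a membrane protein of rodents that binds C3b and C4b and is known mainly as an inhibitor of complement activation on the cell's own surface, so of the 5 it is the least typical receptor.

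Tumor-associated macrophages (TAMs) came from melanomas grown for 14 days after s.c. injection of B16 cells, a mouse melanoma line, into male C57BL/6 mice aged 8 to 10 weeks. One group were wild-type littermates (TAM-WT, 4 libraries) and the other Colec11-/- mice (TAM-KO, 4 libraries), which lack collectin-11, a soluble pattern-recognition molecule that starts the lectin pathway of complement. The deletion is constitutive, so it is present in every cell of the host but not in the injected tumor cells. The cells were sorted by FACS as CD45+F4/80+, and total RNA was sequenced. The numbers of mice and of libraries in a group are equal, so each library is taken to come from a different mouse.

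The libraries held 16225362 to 17280267 reads on genes, except TAM-KO replicate 1, whose own table is incomplete and lacks C3ar1, C5ar1 and Cr1l. C5ar1 of that library is listed in the table of the whole series and its level is given from there, C3ar1 and Cr1l rest on 3 TAM-KO libraries, and the fold changes of all 3 were fitted on 7 libraries. Colec11 itself gave 0 to 4 reads in TAM-WT and 1 read in each TAM-KO library, so it cannot check the genotypes in these cells. Macrophage genes were high in every library, with Lyz2 at 4119 to 8944 FPKM (fragments per kilobase of transcript, scaled to depth), and none of 7 macrophage markers was called, although 4 of them had an unadjusted p under 0.05 with edgeR, 4 were called by DESeq2 and 1 by limma. Melanocyte genes were also present in every library. The summed FPKM of 6 melanoma markers was 1912 to 4309 in TAM-WT and 3733 to 4977 in TAM-KO replicates 2 to 4, with Pmel the most abundant. Their part in the values below was not tested. The cells' own RNA and the number of cells of a type cannot be told apart in such bulk samples.

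C5ar1 and C5ar2 lie side by side on the minus strand of chromosome 7, C5ar1 at chr7:16246743-16259540 and C5ar2 at chr7:16234587-16244154, with 2588 bases between them (RefSeq, GRCm38.p6). C3ar1 is at chr6:122847140-122856157, Vsig4 at chrX:96247201-96293438 and Cr1l at chr1:195098711-195131570, all on the minus strand. The bases before the transcript starts are shown because the 2 C5a receptors and Vsig4 were the members that differed between the genotypes, with C3ar1 for comparison. Capitals mark matches, on either strand, to the ETS core GGAAGT, the AP-1 site TGANTCA, the C/EBP-type site TTGCNNAA, the IRF-type site GAAANNGA and the GAS site TTCNNNGAA, and no match overlapped another. Each run reads 5′ to 3′ along the gene and ends at the base before the start.
C5ar2, chr7:16244155-16244404: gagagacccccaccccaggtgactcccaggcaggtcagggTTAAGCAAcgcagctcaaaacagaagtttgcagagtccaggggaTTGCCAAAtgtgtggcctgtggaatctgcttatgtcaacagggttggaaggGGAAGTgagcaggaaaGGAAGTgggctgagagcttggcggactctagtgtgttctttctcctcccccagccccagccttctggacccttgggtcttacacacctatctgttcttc
C5ar1, chr7:16259339-16259512: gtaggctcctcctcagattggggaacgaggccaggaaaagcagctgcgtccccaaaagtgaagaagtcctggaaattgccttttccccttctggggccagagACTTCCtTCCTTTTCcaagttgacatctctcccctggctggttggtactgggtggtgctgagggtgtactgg
Vsig4, chrX:96293439-96293688: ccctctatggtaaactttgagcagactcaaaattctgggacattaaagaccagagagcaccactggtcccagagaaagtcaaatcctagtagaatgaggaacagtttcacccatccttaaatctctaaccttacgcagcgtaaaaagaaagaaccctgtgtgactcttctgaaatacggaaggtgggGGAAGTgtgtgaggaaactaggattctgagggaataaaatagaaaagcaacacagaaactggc
C3ar1, chr6:122856158-122856407: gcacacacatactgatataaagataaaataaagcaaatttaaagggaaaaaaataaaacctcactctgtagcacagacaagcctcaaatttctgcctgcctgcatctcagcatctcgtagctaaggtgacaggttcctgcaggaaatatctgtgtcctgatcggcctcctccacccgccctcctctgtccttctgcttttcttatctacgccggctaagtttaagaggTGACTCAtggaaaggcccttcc

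The ETS core, the sequence read by factors such as PU.1 of the myeloid lineage, stood in the 250 bases before the start in C5ar2, C5ar1 and Vsig4. C5ar2 held it at positions -115 and -99 and C5ar1 at -190 and -72 (first bases, with -1 the base before the start), of which the match at -190 is beyond the stretch printed. The C5ar1 start used, chr7:16259338, lies inside the annotated gene, whose 5′ end is at 16259540. All matches given here for C5ar1 thus lie within the gene. Vsig4 held 1 match, at -63. Among all 32851 promoters of the RefSeq set, 19.7% held this core in the same window. C3ar1 held an AP-1 site at -22, which 6.75% of promoters held, and no ETS core. C5ar2 also held C/EBP-type sites at -210 and -166, a motif of 9.56% of promoters, and C5ar1 an IRF-type site at -65, a motif of 18.1%. The GAS site, held by 7.02% of promoters, matched in none of the 5 genes. Cr1l, and the second start of C5ar2 at chr7:16242331, had no match. A match is only these letters and does not show a bound site.

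In TAMs from Colec11-/- mice, 3 of the 5 receptor genes fell and none rose. C5ar1, C5ar2 and Vsig4 were called lower in TAM-KO, at an adjusted p of at most 0.05 by edgeR's quasi-likelihood test over all 12412 genes tested, where 5.24% of genes were called lower and 4.58% higher. C3ar1 and Cr1l were not called. A count of 0 called higher stood beside 4 members with an unadjusted p under 0.05, all with values lower in TAM-KO, and DESeq2 and limma called none higher. The median log2 fold change (TAM-KO minus TAM-WT) of the 5 was -1.54 beside 0.00 for all genes tested. All 5 passed the filter on low counts, Vsig4 by its reads in TAM-WT. Since these values chose the genes, nothing follows from the count.

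C5ar1 was the most abundant of the genes that fell. Its level was 107, 125, 138 and 39.2 FPKM in TAM-WT replicates 1 to 4, and 49.5, 31.8, 33.2 and 48.0 FPKM in TAM-KO replicates 1 to 4. TAM-WT replicate 4 thus lay within the range of TAM-KO, and the groups overlapped. The means were 102 ± 44.0 (SD, n = 4) and 40.6 ± 9.42 FPKM (SD, n = 4), 2.52-fold apart, and the fitted log2 fold change was -1.54 ± 0.40 (SE) on 7 libraries. Without TAM-WT replicate 4 the TAM-WT mean was 123 ± 15.6 FPKM (SD, n = 3), and the log2 fold change was -1.80. The counts behind these levels ran from 1163 to 5248 reads, so counting error was small beside the spread between libraries.

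C5ar2 showed the same split of libraries at a much lower level. It stood at 3.39, 2.89, 3.51 and 0.30 FPKM in TAM-WT replicates 1 to 4 and at 0.39, 0.44, 0.28 and 0.46 FPKM in TAM-KO replicates 1 to 4. TAM-WT replicate 4 again sat among the TAM-KO libraries, with 13 reads (95% Poisson interval 6.92 to 22.2) against 143 to 164 reads in the other TAM-WT libraries and 11.99 to 22 reads in TAM-KO. The intervals of counts cover counting error only. The means were 2.52 ± 1.51 and 0.39 ± 0.081 FPKM (SD, n = 4 each), 6.43-fold apart, with a log2 fold change of -2.86 ± 0.62 (SE). Without TAM-WT replicate 4 the means were 8.31-fold apart and the log2 fold change was -3.23. Of 7 macrophage markers, Adgre1, Cd68, Mertk and Fcgr1 were highest of all TAM-WT in this library, and Csf1r and Itgam second highest. Lyz2 was lowest there, at 6521 FPKM, and it made up most of the summed level of 9637 FPKM, which was the lowest of TAM-WT but above the 6115 to 8800 FPKM of TAM-KO replicates 2 to 4. Its melanoma sum of 1912 FPKM was the lowest of the series.

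**Figure D1:**
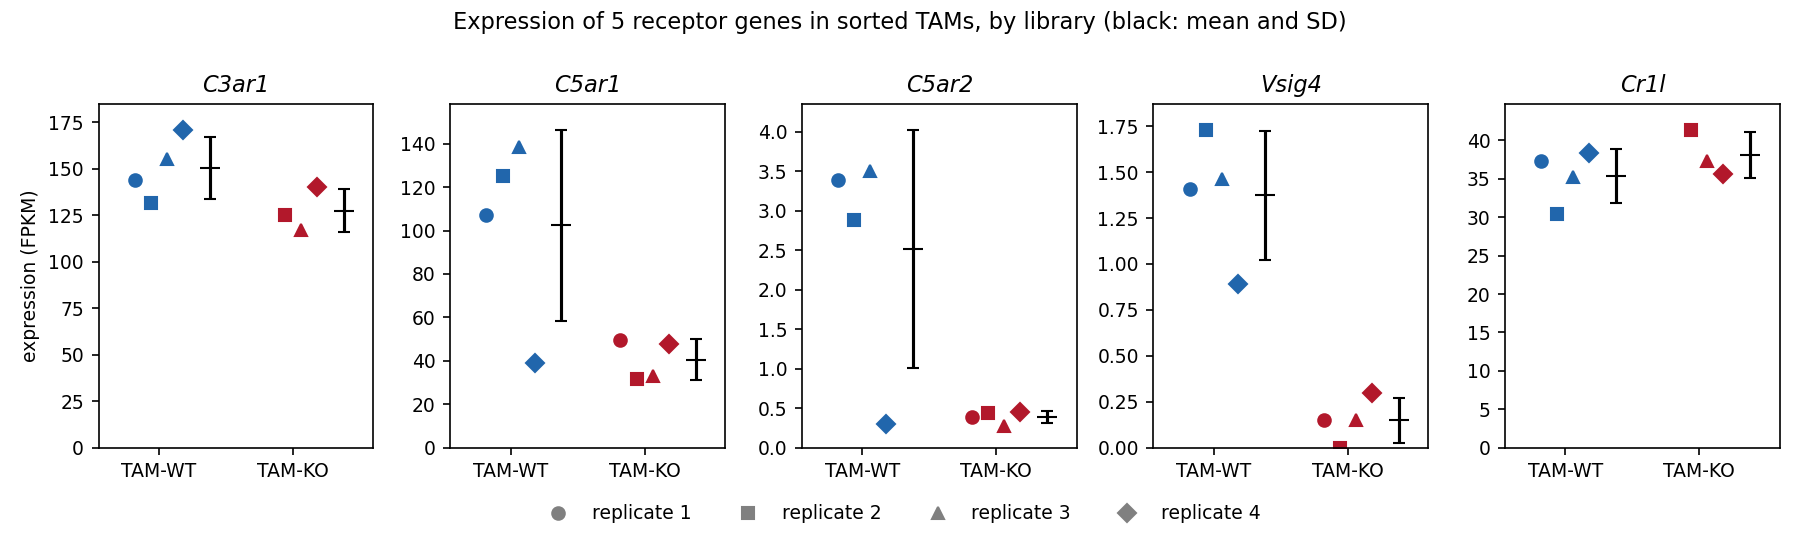
Expression in FPKM (linear axes from 0, 1 panel a gene) of C3ar1, C5ar1, C5ar2, Vsig4 and Cr1l in each TAM-WT (blue) and TAM-KO (red) library, symbols giving the replicate, with the group mean and SD in black. TAM-WT replicate 4 lies with the TAM-KO libraries for C5ar1 and C5ar2, whereas for Vsig4 all 4 TAM-KO libraries (0 to 0.30 FPKM) lie below all TAM-WT libraries (0.89 to 1.73 FPKM).

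The balance between the receptors differed by library as well. C3ar1 and C5ar1 were near equal in TAM-WT replicates 1 to 3, with ratios of FPKM of 1.35, 1.05 and 1.12. In TAM-WT replicate 4 C3ar1 was 4.36 times as high as C5ar1, and in TAM-KO replicates 2 to 4 it was 3.94, 3.52 and 2.92 times as high. The level of C5ar1 over that of C5ar2 was 31.6, 43.2 and 39.4 in TAM-WT replicates 1 to 3. It was 131 in TAM-WT replicate 4 and 127, 72.2, 119 and 104 in TAM-KO replicates 1 to 4, although with 11.99 to 22 reads of C5ar2 behind these last 5 ratios each is loose. In the libraries where both C5a receptors were low, C5ar2 was thus lower by the larger factor.

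**Figure D2:**
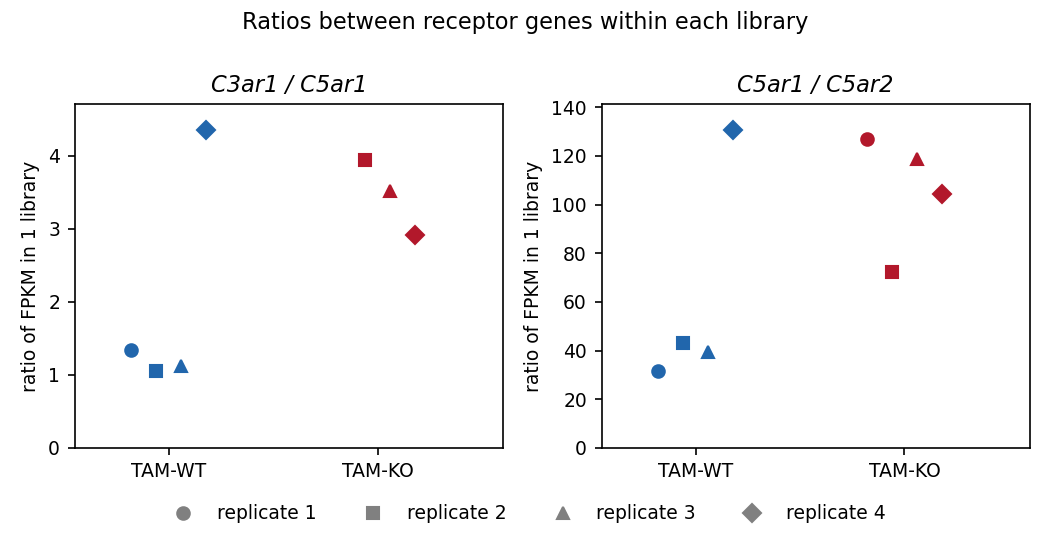
Ratio of FPKM of C3ar1 to C5ar1 (left) and of C5ar1 to C5ar2 (right) within each library, blue for TAM-WT and red for TAM-KO, symbols giving the replicate (linear axes from 0). TAM-WT replicates 1 to 3 lie between 1.05 and 1.35 on the left and between 31.6 and 43.2 on the right, below all the other libraries, TAM-WT replicate 4 included.

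Vsig4 was the rarest of the genes and the member whose groups did not overlap. It was at 1.41, 1.73, 1.46 and 0.89 FPKM in TAM-WT replicates 1 to 4 and at 0.15, 0, 0.15 and 0.30 FPKM in TAM-KO replicates 1 to 4. Every TAM-KO library was below every TAM-WT library, as for 5.65% of all genes tested. TAM-WT replicate 4 was the lowest of its group, but with 18 reads it was above TAM-KO, where 3, 0, 3 and 6 reads were found. The 0 reads of TAM-KO replicate 2 allow up to 3.69 by the Poisson interval. In all, 110 reads were found in TAM-WT and 12 in TAM-KO, and the log2 fold change was -3.23 ± 0.49 (SE). This value depends on the scale at so low a level, and was -1.04 on log2(FPKM + 1) with limma.

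Some markers of resident-type macrophages fell along with Vsig4. Of 8 such markers 6 were tested, 4 fell, none rose, and the median log2 fold change was -1.73. The 4 that fell were Lyve1 (-3.63 ± 0.69, adjusted p = 0.0241), Marco (-2.73 ± 0.70, adjusted p = 0.0478), Cd163 (-2.24 ± 0.30, adjusted p = 0.00933) and Cbr2 (-1.21 ± 0.29, adjusted p = 0.0423, all SE and edgeR), which were named after their values were seen. Cd163, the hemoglobin scavenger receptor, was at 5.29 to 8.88 FPKM in TAM-WT and 0.92 to 2.31 FPKM in TAM-KO, without overlap. Marco overlapped, at 9.89 FPKM in TAM-WT replicate 4 and 11.25 FPKM in TAM-KO replicate 1. Folr2 (-0.77 ± 0.31 SE) and Cd5l (-0.42 ± 0.62 SE) were not called and their groups overlapped too. The summed level of the list was 577 to 788 FPKM in TAM-WT and 213 to 512 FPKM in TAM-KO replicates 2 to 4. Timd4, a defining gene of the list, was at or below 0.56 FPKM in every library. Of 5 monocyte markers 3 rose and none fell, among them Plac8 (1.41 ± 0.21 SE, adjusted p = 0.0123, edgeR), the most abundant. Ccr2 (-0.05 ± 0.23 SE) and Chil3 (0.82 ± 0.34 SE) were not called. Of all genes tested 5.24% were called lower and 4.58% higher, the shares to set beside these counts. The summed monocyte level was 87.5 to 213 FPKM in TAM-WT and 290.1 to 438 FPKM in TAM-KO replicates 2 to 4. The part of these cells in the levels of Vsig4, C5ar1 and C5ar2 was not tested.

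C3ar1 was the most abundant of the 5. Its level was 144, 132, 155 and 171 FPKM in TAM-WT replicates 1 to 4 and 125, 117 and 140.1 FPKM in TAM-KO replicates 2 to 4. The groups overlapped, and TAM-WT replicate 4 was here the highest library of all. The means were 151 ± 16.7 (SD, n = 4) and 127 ± 11.7 FPKM (SD, n = 3), and the log2 fold change of -0.35 ± 0.14 (SE) was not called. Without TAM-WT replicate 2 it was -0.43 and was called. In the same fit the general macrophage genes Adgre1, which encodes F4/80, and Csf1r, the receptor for the growth factor CSF-1, were at -0.22 ± 0.11 and -0.19 ± 0.14 (SE) and were not called either. The 7 macrophage markers ran from -0.70 (Lyz2) to 0.49 (Fcgr1), with a median of -0.35 that equalled the value of C3ar1. The level of C3ar1 over that of Csf1r was 0.51 to 0.64 in TAM-WT and 0.52 to 0.55 in TAM-KO replicates 2 to 4. For C5ar1 that ratio was 0.38, 0.60 and 0.57 in TAM-WT replicates 1 to 3, 0.15 in TAM-WT replicate 4 and 0.13 to 0.18 in TAM-KO replicates 2 to 4.

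Cr1l differed least. It was at 37.3, 30.4, 35.3 and 38.4 FPKM in TAM-WT replicates 1 to 4 and at 41.4, 37.3 and 35.6 FPKM in TAM-KO replicates 2 to 4. The ranges overlapped, and the log2 fold change was 0.00 ± 0.11 (SE). It was 0.11 when libraries were scaled to total reads, a scaling that moved the median of all genes to 0.09.

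The calls rested on few libraries, while the fold changes were steadier. With each library left out in turn, C5ar1 ran from -1.80 to -1.31, C5ar2 from -3.23 to -2.65 and Vsig4 from -3.80 to -2.83 on the log2 scale. The number of members called was 3 without TAM-WT replicate 4, 4 without TAM-WT replicate 2, and 2 without TAM-WT replicate 1 or TAM-KO replicate 4. It was 1, Vsig4, when TAM-WT replicate 3 was left out, and also for the first and the second replicate of TAM-KO. Without TAM-KO replicate 3 it was 0 by edgeR, with 3 members at an unadjusted p under 0.05. C5ar1 was fitted without TAM-KO replicate 1 from the outset, so leaving that library out kept its log2 fold change at -1.54. Only the adjustment over all genes moved its call there. The calls over all genes moved as well, from 9.81% with all libraries to 22.2% without TAM-WT replicate 2, 1.21% without replicate 3 and 3.34% without replicate 4 of TAM-WT, and 0.617% without either replicate 2 or replicate 3 of TAM-KO. They were 9.31% without TAM-WT replicate 1, and 5.47% and 9.07% without the first and the fourth replicate of TAM-KO.

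**Figure D3:**
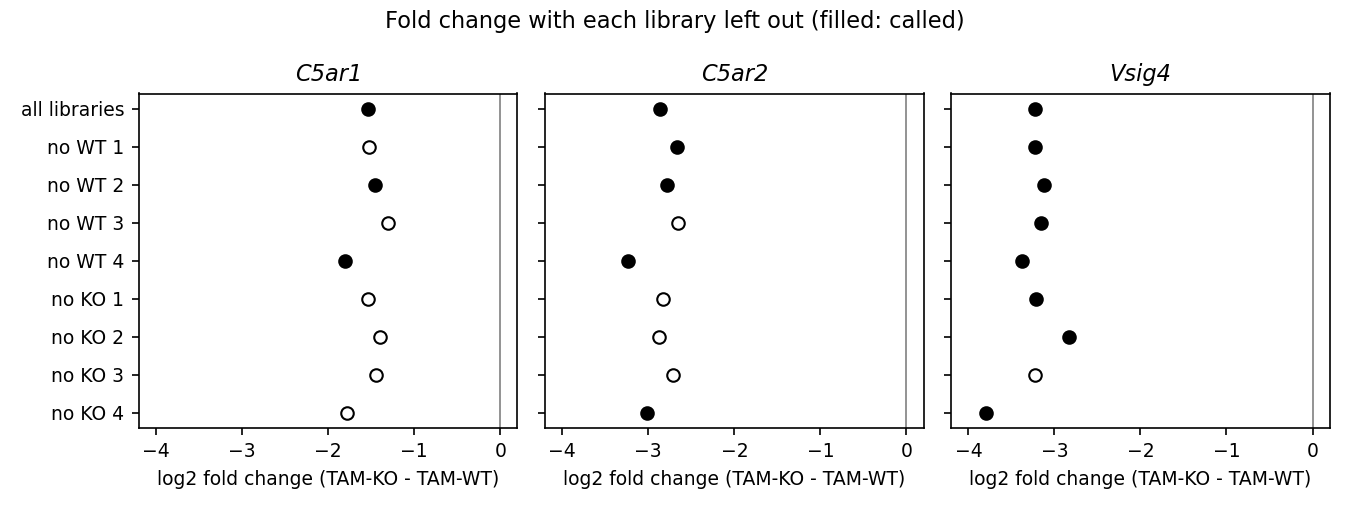
Log2 fold change (TAM-KO minus TAM-WT) of C5ar1, C5ar2 and Vsig4 with all libraries and with each library left out, filled where the gene was called and open where it was not. All values are negative, between -3.80 and -1.31, and C5ar1 was called with all libraries, without TAM-WT replicate 2 and without TAM-WT replicate 4. The fits of C5ar1 never held TAM-KO replicate 1, so leaving it out removes no value of that gene.

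By mean FPKM the levels ran in the order C3ar1, C5ar1, Cr1l, C5ar2 and Vsig4. This order, and with it the pairs compared, was taken from the same values that were then tested. The p-values below therefore describe the pairs and do not establish the order. Neighbours were compared within libraries by an exact two-sided sign-flip permutation test of the log2 ratio of (FPKM + 0.1), adjusted over the 4 pairs. C3ar1 was higher than C5ar1 in 7 of 7 libraries, by 2.24-fold on average (adjusted p = 0.0312, exact permutation test), and the raw p of 0.0156 is the smallest that 7 libraries allow. This mean joins ratios of 1.05 to 1.35 in TAM-WT replicates 1 to 3 with ratios of 2.92 to 4.36 in the other libraries, and the low C5ar1 values in the latter are among those that chose the genes. In TAM-WT alone no pair passed, where 4 libraries allow no p under 0.125. Cr1l was higher than C5ar2 in 7 of 7 libraries, by 33.7-fold on average (adjusted p = 0.0312, exact permutation test). That mean likewise joins TAM-WT replicates 1 to 3, with C5ar2 at 2.89 to 3.51 FPKM, and the other libraries, with C5ar2 at 0.28 to 0.46 FPKM. The low C5ar2 values are also among those that chose the genes. C5ar1 was higher than Cr1l in 5 of 7 libraries, and this pair did not pass (adjusted p = 0.141, exact permutation test). C5ar2 was higher than Vsig4 in 7 of 8 libraries, the exception being TAM-WT replicate 4, and did not pass either (adjusted p = 0.104, exact permutation test). Without TAM-WT replicate 4 C5ar2 and Vsig4 passed as well, 3 pairs in all. Without any other library except TAM-KO replicate 1 no pair passed, where 6 libraries were left in a pair and the smallest raw p was 0.0312.

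The genes whose pattern over the libraries was most like that of each member were listed from about 10942 candidates with a mean of at least 5 CPM, the counts scaled to library size. The measure was Pearson's r of log2(CPM + 1), over the libraries holding both genes, and it is given as a description of libraries that fall into clusters. For C5ar1 these were Meis3, Gpx3 and Ccdc152 (r = 0.98, 0.97 and 0.97 over 7 libraries). Meis3, a homeobox gene, lies on the same chromosome, 48076 bases from C5ar2, with 1 protein-coding gene between them. Its level was 5.56, 5.87, 6.91 and 2.73 FPKM in TAM-WT replicates 1 to 4 and 3.03, 2.50, 2.92 and 3.30 FPKM in TAM-KO replicates 1 to 4, so that TAM-WT replicate 4 lay with TAM-KO here too. Meis3 was not called (-0.94 ± 0.31 SE, adjusted p = 0.0844, edgeR). Of the 13 tested genes within 250 kb of the C5a receptors, 1 was called, Ccdc9, which was lower (-0.36 ± 0.09 SE, adjusted p = 0.0415, edgeR) and is named after its values were seen.

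For C5ar2 the closest gene was Apoe, which encodes the lipid carrier apolipoprotein E (r = 0.99 over 7 libraries), followed by Dynlt1b and Pik3c3 (r = 0.97 each over 8 libraries). Pik3c3 varied little in FPKM, from 8.96 to 10.9 in TAM-WT and from 9.48 to 10.9 in TAM-KO. Apoe was at 3175, 2886, 3314 and 497 FPKM in TAM-WT replicates 1 to 4 and at 442, 435, 454 and 436 FPKM in TAM-KO replicates 1 to 4. Its level was 937 to 1657 times that of C5ar2 in the same library, and it showed TAM-WT replicate 4 beside the TAM-KO libraries in the same way. For Vsig4 the closest were Sptssa, Ednrb, which encodes the endothelin receptor type B, and Blmh (r = 0.99, 0.99 and 0.98 over 7 libraries). Ednrb was at 16.0 to 47.4 FPKM in TAM-WT and 2.27 to 7.38 FPKM in TAM-KO, again without overlap. Blmh varied little, at 25.52 to 30.17 FPKM in TAM-WT and 25.54 to 25.59 FPKM in TAM-KO, and its groups overlapped. For C3ar1 the closest genes were Gnaq, Mpdu1 and Atg7 (r = 0.99 each over 7 libraries) and for Cr1l Apaf1, Btbd7 and Rasa2 (r = 0.98 each over 7 libraries), in both cases over a narrow range of levels. In FPKM, Gnaq ran from 14.14 to 15.17 in TAM-WT and from 15.04 to 15.51 in TAM-KO, whereas C3ar1 was lower in TAM-KO.

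**Figure D4:**
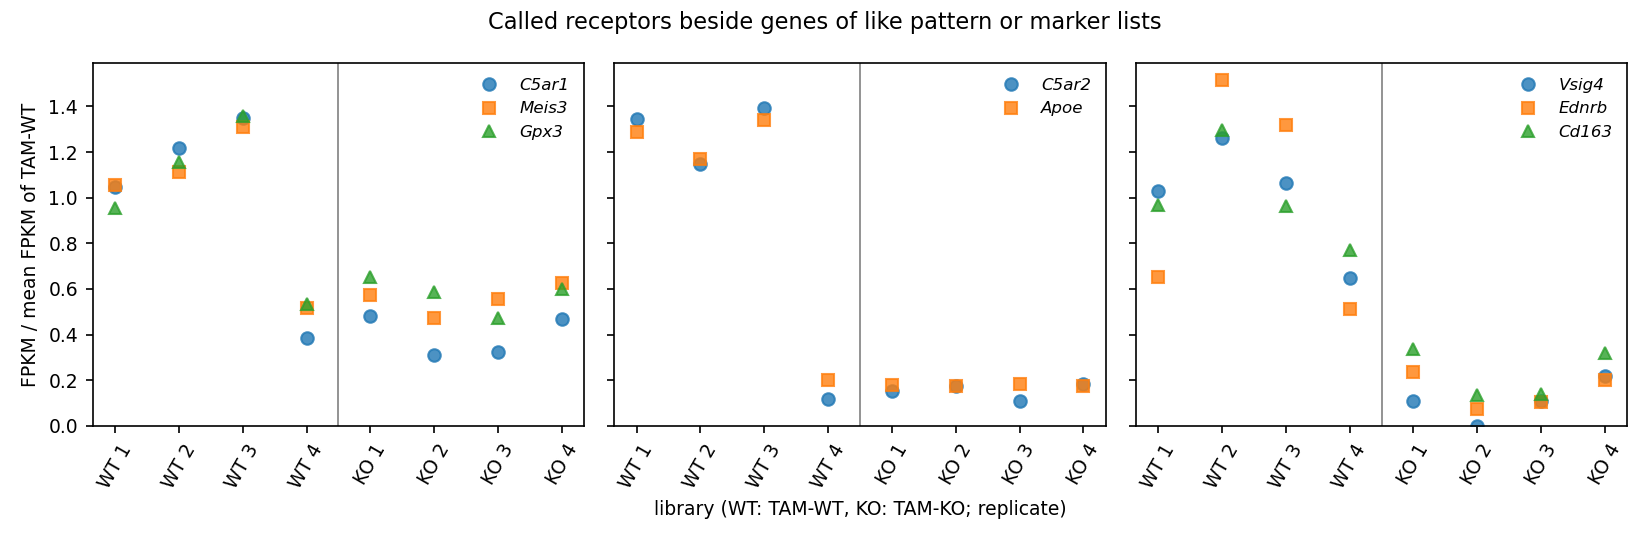
FPKM divided by the mean FPKM of TAM-WT, by library (WT 1 to 4, KO 1 to 4, linear axis from 0), for C5ar1 with Meis3 and Gpx3, for C5ar2 with Apoe, and for Vsig4 with Ednrb and the resident-type marker Cd163. TAM-WT replicate 4 sits at the TAM-KO level in the left and middle panels (Apoe 497 FPKM against 435 to 454 FPKM in TAM-KO). On the right it is the lowest TAM-WT library but lies above every TAM-KO library.

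Among 76 further genes of complement and of anaphylatoxin receptor signalling, 48 were tested, of which 4 rose and 6 fell in TAM-KO, 20.8% in all beside 9.81% of all genes tested. The median log2 fold change over the 48 was -0.03 beside 0.00 for all genes. The count was 18 without TAM-WT replicate 2, 2 without TAM-WT replicate 3, 4 without TAM-WT replicate 4, and 1 when either replicate 2 or replicate 3 of TAM-KO was left out. The share called among all genes in these fits was 22.2%, 1.21%, 3.34% and 0.617%, in the same order. With scaling to total reads 8 rose and 6 fell, and over all genes the share of calls that were higher went from 46.6% to 64.4%.

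Of the components, which include the precursors of the ligands, 12 of 27 were tested, 3 rose and 2 fell. By edgeR 9 had an unadjusted p under 0.05, DESeq2 called 8, and limma called 7 and 6 at pseudocounts of 1 and 0.1. Cfb, factor B of the alternative pathway (2.36 ± 0.58 SE, adjusted p = 0.0433, edgeR), C4b (1.42 ± 0.27 SE, adjusted p = 0.0244) and C2 (1.03 ± 0.16 SE, adjusted p = 0.0182) rose, the last pair being parts of the C3 convertase of the classical and lectin pathways. Fcna, the lectin pathway molecule ficolin A (-1.97 ± 0.39 SE, adjusted p = 0.0274, edgeR), and Colec12, a scavenger receptor of the collectin family (-1.58 ± 0.26 SE, adjusted p = 0.0184), fell. C1qa and C1qc, subunits of C1q, were the most abundant at 1926 and 1849 FPKM on average and were not called. The precursors themselves, named here after their values were seen, were unlike each other. C3 had a mean of 10.8 ± 5.16 FPKM in TAM-WT and 25.5 ± 5.80 FPKM in TAM-KO (SD, n = 4 each; 1.31 ± 0.39 SE, adjusted p = 0.0675, edgeR). Its libraries ran from 4.51 to 15.41 FPKM in TAM-WT and from 20.06 to 32.19 FPKM in TAM-KO. Hc, which encodes C5, had means of 0.0025 and 0.0033 FPKM and was too low to be tested.

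Of 11 regulators of complement 5 were tested and none was called by edgeR, DESeq2 or limma, with 2 at an unadjusted p under 0.05 by edgeR. Cd59a, an inhibitor of the membrane attack complex and among the most abundant of the list, was at -0.53 ± 0.22 SE. Of 8 other complement receptors 7 were tested, and 1 fell, Cd93 (-0.45 ± 0.12 SE, adjusted p = 0.0493, edgeR), a transmembrane glycoprotein first described as a C1q receptor. Itgb2, the beta chain of the C3b product receptors CR3 and CR4, was at -0.02 ± 0.15 SE, and Calr, calreticulin, at -0.04 ± 0.10 SE. Of the 5 carboxypeptidases that trim anaphylatoxins, Cpd (0.08 ± 0.13 SE) and Cpm (-0.01 ± 0.34 SE) were tested and neither was called by edgeR, DESeq2 or limma, nor had an unadjusted p under 0.05 by edgeR.

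The signalling list held 16 genes, all tested, of which 1 rose and 3 fell. Pik3cg, the catalytic subunit of the PI3 kinase that G protein beta-gamma subunits activate, fell (-0.80 ± 0.09 SE, adjusted p = 0.00402, edgeR), from 22.3 ± 2.69 to 14.1 ± 0.52 FPKM (SD, n = 4 each). Gng2, a gamma subunit (-0.52 ± 0.11 SE, adjusted p = 0.0329, edgeR), and Gnai3, an inhibitory alpha subunit (-0.37 ± 0.09 SE, adjusted p = 0.0415), fell by less, and Plcb3, a phospholipase C (0.24 ± 0.06 SE, adjusted p = 0.0442), rose. The most abundant, Gnai2 at 546 and Gnb2 at 248 FPKM on average, were not called. Of 9 other chemoattractant receptors 6 were tested and none was called by edgeR or limma, while DESeq2 called 3 and edgeR put 3 at an unadjusted p under 0.05. The most abundant were Ccrl2, an atypical receptor that binds chemerin (-1.73 ± 0.48 SE, adjusted p = 0.0506, edgeR), and Cmklr1, the signalling chemerin receptor (0.15 ± 0.12 SE, adjusted p = 0.432). Fpr2, named after its values were seen, had values opposite to those of Ccrl2 (1.32 ± 0.37 SE, adjusted p = 0.0571, edgeR). The median log2 fold change of this list was 0.05.

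**Figure D5:**
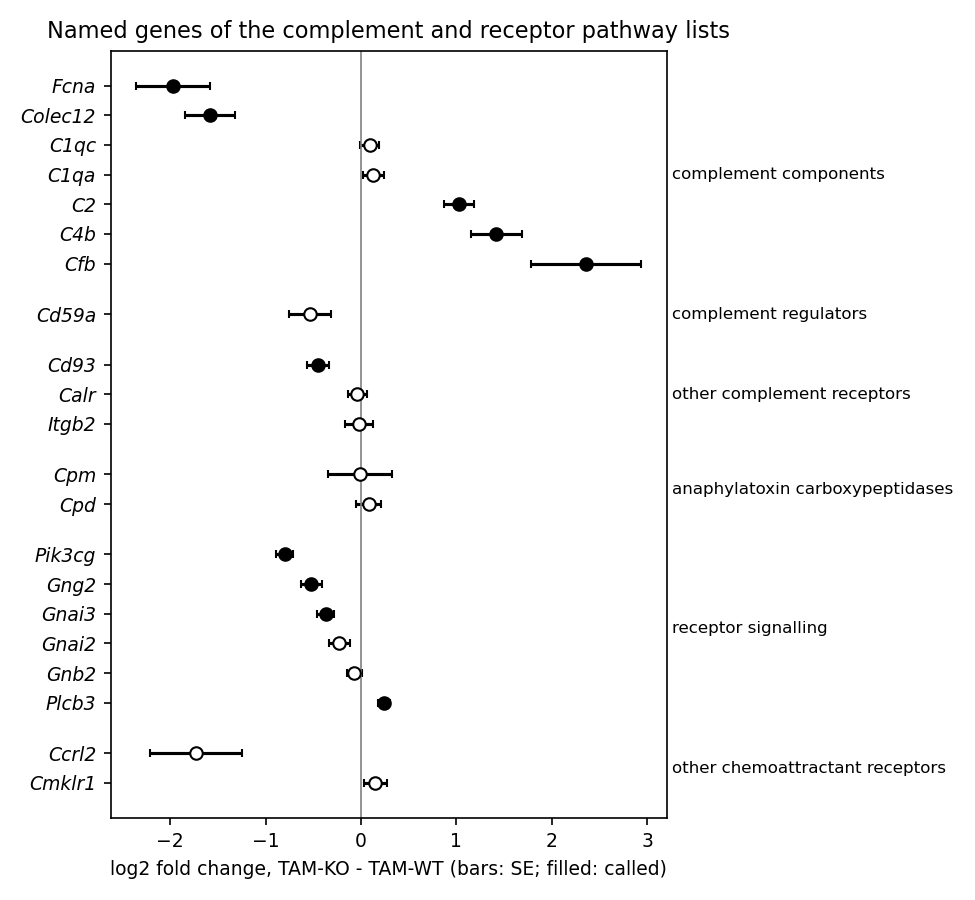
Log2 fold change (TAM-KO minus TAM-WT) with its SE for the named genes of 6 pathway lists, filled where called at an adjusted p of at most 0.05 (edgeR) and open where not. The called genes run from -1.97 (Fcna) to 2.36 (Cfb), and those of the signalling list lie between -0.80 and 0.24.

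The summed levels of other leukocyte markers were low beside that of macrophage markers. Single genes such as Plac8 (85.5 FPKM on average) and Csf3r (24.6 FPKM) still lay above the macrophage marker Mertk (20.5 FPKM). Mast cell and basophil genes were at or near 0 apart from Kit, at 2.40 FPKM on average, and Ly6g, which marks neutrophils, was at most 0.19 FPKM. Of 9 neutrophil markers 5 were tested and 1, S100a8, rose by edgeR, with 4 at an unadjusted p under 0.05, 4 called by DESeq2 and 1 by limma. Mmp8 had values the other way (-1.22 ± 0.35 SE, adjusted p = 0.0603, edgeR). S100a8 was at 73.5 FPKM in TAM-KO replicate 1, the library with the highest C5ar1 level of its group, and at 2.57 to 15.8 FPKM in the others. Csf3r, the most abundant of that list, was not called (0.58 ± 0.18 SE, adjusted p = 0.0737, edgeR). The T cell list, led by Cd3g, had a median log2 fold change of 2.51 over 7 genes tested, of which 1 rose by edgeR. In that list 6 had an unadjusted p under 0.05, DESeq2 called 3 and limma 5. Its summed level was 2.51 to 16.4 FPKM in TAM-WT and 17.8 to 44.8 FPKM in TAM-KO replicates 2 to 4. Of 2 tested NK cell genes 1 rose. The melanoma list had a median of 0.62 over 6 genes tested, all with values higher in TAM-KO, of which 1 rose by edgeR, 5 had an unadjusted p under 0.05, DESeq2 called 4 and limma 2. Of 6 dendritic cell genes 1 rose by edgeR, with 2 at an unadjusted p under 0.05 and 2 called by DESeq2. The gene that rose was Xcr1, with means of 0.18 FPKM in TAM-WT and 0.66 FPKM in TAM-KO. Cd209a had values the other way (-1.01 ± 0.30 SE, adjusted p = 0.065, edgeR), and the median log2 fold change of this list was 0.02. No B cell, endothelial or fibroblast gene was called by edgeR, while 1 of each list had an unadjusted p under 0.05 and DESeq2 called 1 endothelial gene. Their part in the receptor levels was not tested.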

How the data were processed

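Total RNA of sorted CD45+F4/80+ TAMs was sequenced by the authors on the BGISEQ platform. Per the submitters' processing notes, HISAT2 2.0.4, Bowtie2 2.2.5 and RSEM 1.2.12 were used with the genome build GRCm38.p6. The deposited tables give, for each library and gene, expected counts from RSEM, FPKM and TPM, all made by the authors. FPKM and TPM scale by transcript length and depth, so levels of different genes were compared in FPKM, with TPM as the alternative. The authors' own log2 ratios, p-values and q-values in the table of the whole series were not used.

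Samples were grouped by the genotype in their titles. The table of TAM-KO replicate 1 did not list 5311 genes and held 629 values out of place, which were dropped. Where both tables held a value, all 30780 were equal within 1e-06. Expected counts were rounded and tested with edgeR 4.0.16 (R 4.3.3, TMM scaling, filterByExpr, glmQLFTest), on 8 libraries for 9396 genes and on 7 for 3016, with Benjamini-Hochberg adjustment over all 12412. Alternatives were DESeq2 1.42.0, limma 3.58.1 on log2(FPKM + 1) and log2(FPKM + 0.1), other scalings and filters, the replicate number as a block and each library left out. In simulated data for this comparison over all genes, edgeR called 73% of 100 genes changed 2-fold and 100% of 100 changed 4-fold. The simulated counts had the same dispersion for every gene and no library set apart, and genes of low count were not changed. These shares therefore need not hold for the measured libraries. The order of levels was tested with Python 3.11.15.

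Genes named were the 5 members, Colec11, the called genes of each pathway list and its 2 of highest mean FPKM, the 3 most like genes of each member, and the most abundant gene of each marker list. Further names, chosen after their values were seen, were C3, Hc, Fpr2, Ccdc9 and marker genes other than the most abundant of their list. The values of 1 gene of the regulator list are not reported here. Members and lists were chosen with earlier results of these data known. Promoters were taken from RefSeq (all 5 members matched), printed only up to an exon annotated in the window.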

Additional observations from a re-analysis of the deposited data

Results flagged for a closer look

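Groups of 4 libraries were examined for a library set apart from the other 3 (the gap to the nearest library over the range, by Dixon's 95% limit) in 60 groups of named genes, where chance alone flags about 1 in 20. No member was set apart, C5ar2 in TAM-WT coming nearest at 0.807 with TAM-WT replicate 4. C4b of TAM-WT replicate 1 was 19.4 FPKM against 8.73 to 9.20 FPKM in the other TAM-WT libraries. Plcb3 of TAM-KO replicate 1 was 15.0 FPKM against 16.4 to 16.6 FPKM in the other TAM-KO libraries. Cd3g, the T cell receptor subunit, of TAM-WT replicate 1 was 4.58 FPKM against 0.15 to 0.23 FPKM in the other TAM-WT libraries.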

How the results depend on the processing

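The number of receptor genes called, 3 as reported, was 1 (Vsig4) with limma on log2(FPKM + 1) and on log2(FPKM + 0.1) and 1 (C5ar2) with at least 10 counts in every library, where Vsig4 was not tested. It ranged from 0 to 4 with each library left out, and was 3 with the other scalings, DESeq2, no filter, TAM-KO replicate 1 filled from the series table, or a fold of at least 2 required. With the replicate number as a block it was 1 (Vsig4), and the log2 fold changes were -1.41 for C5ar1, -2.60 for C5ar2 and -3.22 for Vsig4. Over all genes the share called was 9.81% as reported, 18.2% with DESeq2, and 10.7% and 10.3% with limma at pseudocounts of 1 and 0.1. It was 9.62% with DESeq2 size factors, 10.9% with scaling to total reads, 7.42% with no filter and 9.15% with at least 10 counts. With the filled library the share was 8.95%, with the block 8.7%, and with the fold required 2.53%. Whether the replicate numbers pair the libraries is not given by the labels. Deviations of same-numbered libraries correlated at -0.37, 0.038, -0.26 and 0.28, which cannot settle it, and the main fit used no pairing. C5ar1, C5ar2, Vsig4 and C3ar1 were lower in TAM-KO under every alternative run, and C5ar2 was -1.19 on log2(FPKM + 1). Cr1l, at 0.00, was 0.00 with DESeq2 size factors and with DESeq2, 0.11 with scaling to total reads and with limma at either pseudocount, 0.01 with at least 10 counts and with the block, and -0.08 to 0.05 with each library left out. The 10 pathway genes called were 17 with DESeq2 and 5 with a fold of at least 2, and 1 to 18 with each library left out. Of the neighbouring levels, 2 pairs passed as reported, 2 in TPM, 0 in TAM-WT alone, where 0.125 is the smallest p, and 0 to 3 with each library left out. The causes were not tested. Low counts limit C5ar2 and Vsig4, at 0 to 35 reads for Vsig4 a library.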
